A study of Homo sapiens with 9 samples.

Results

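Chaperonins are barrel-shaped folding machines, and their transcripts were followed in GM12878 cells exposed to sulforaphane. The list held 10 genes: TCP1, CCT2, CCT3, CCT4, CCT5, CCT6A, CCT7 and CCT8 of the cytosolic ring, and HSPD1 and HSPE1 of the mitochondrial one. A gene counted as measured where a transcript cluster of the array, the set of probes that stands for a gene, was annotated with its symbol and no other. That held for 9 of the 10 genes, 7 cytosolic and 2 mitochondrial, among 14232 genes with a cluster of their own and 22011 clusters in all. The only cluster annotated with TCP1 also carried 2 other symbols, so TCP1 was not measured. None of the 9 genes had a further cluster of its own.

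GM12878 is a B-lymphoblastoid line made from a single donor by Epstein-Barr virus, and the labels name it as B lymphocytes. Cultures of 900000 cells/ml, grown with 15% fetal bovine serum, were either taken untreated (0 h) or exposed to 10 µM D,L-sulforaphane, the electrophilic isothiocyanate of broccoli, for 8 h or 24 h. Each group had 3 cultures, each on its own Affymetrix Human Exon 1.0 ST array. The protocol names a 0.1% DMSO vehicle, but no vehicle array was used here, so time in culture and treatment cannot be told apart.

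The cytosolic chaperonin, called CCT or TRiC, is a hetero-oligomer of related subunits in 2 stacked rings. It closes over newly made actin, tubulin and proteins with beta-propeller folds, and releases them folded after ATP hydrolysis. Prefoldin hands substrates to it, and the tubulin folding cofactors take tubulin from it. In mitochondria, HSP60 (HSPD1) forms the barrel and HSP10 (HSPE1) the lid, and both fold proteins imported from the cytosol. Heat shock factor is known to drive several chaperone genes when proteins misfold, and HSPD1 and HSPE1 lie head to head around a shared start region.

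The start regions were searched for the letters of the heat shock element and of other elements, and windows with matches are shown. RefSeq sequences of GRCh38.p14 were found for 8 of the 9 measured genes in 11 windows of 250 bases before a start, and none for CCT6A. The letters searched, on both strands, were the paired heat shock elements GAANNTTC and TTCNNGAA, the E-box CACGTG and the antioxidant response core TGACNNNGC. The heat shock pairs can overlap each other, and capitals mark every match.
HSPD1, inner start (chr2:197499841-197500090, strand minus): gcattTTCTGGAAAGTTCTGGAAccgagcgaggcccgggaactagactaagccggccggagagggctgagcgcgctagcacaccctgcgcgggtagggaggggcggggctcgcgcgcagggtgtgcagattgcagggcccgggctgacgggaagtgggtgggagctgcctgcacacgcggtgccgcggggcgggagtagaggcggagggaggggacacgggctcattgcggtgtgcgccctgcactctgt
HSPD1, outer start (chr2:197500275-197500524, strand minus): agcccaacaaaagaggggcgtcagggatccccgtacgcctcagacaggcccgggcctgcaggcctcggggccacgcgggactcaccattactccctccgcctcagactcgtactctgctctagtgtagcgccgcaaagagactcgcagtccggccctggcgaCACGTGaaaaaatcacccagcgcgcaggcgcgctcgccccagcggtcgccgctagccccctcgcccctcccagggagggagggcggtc
HSPE1 (chr2:197500129-197500378, strand +): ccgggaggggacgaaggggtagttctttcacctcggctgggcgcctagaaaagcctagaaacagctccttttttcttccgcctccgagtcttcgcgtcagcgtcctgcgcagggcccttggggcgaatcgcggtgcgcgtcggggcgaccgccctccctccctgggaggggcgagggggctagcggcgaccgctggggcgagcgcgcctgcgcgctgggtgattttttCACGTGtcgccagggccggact
CCT2, inner start (chr12:69585639-69585888, strand +): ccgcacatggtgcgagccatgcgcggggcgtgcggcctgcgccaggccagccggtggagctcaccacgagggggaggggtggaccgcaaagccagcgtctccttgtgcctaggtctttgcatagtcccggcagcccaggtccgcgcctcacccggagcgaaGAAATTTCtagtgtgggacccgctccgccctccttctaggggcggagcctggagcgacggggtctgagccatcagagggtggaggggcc
CCT4 (chr2:61888657-61888906, strand minus): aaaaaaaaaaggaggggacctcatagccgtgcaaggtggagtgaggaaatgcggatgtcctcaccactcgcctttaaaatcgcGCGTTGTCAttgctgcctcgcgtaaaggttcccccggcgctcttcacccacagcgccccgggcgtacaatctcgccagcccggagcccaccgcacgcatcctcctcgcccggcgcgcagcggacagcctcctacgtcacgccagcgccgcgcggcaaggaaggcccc
DNAJB1, a heat shock gene that rose, for comparison (chr19:14518398-14518647, strand minus): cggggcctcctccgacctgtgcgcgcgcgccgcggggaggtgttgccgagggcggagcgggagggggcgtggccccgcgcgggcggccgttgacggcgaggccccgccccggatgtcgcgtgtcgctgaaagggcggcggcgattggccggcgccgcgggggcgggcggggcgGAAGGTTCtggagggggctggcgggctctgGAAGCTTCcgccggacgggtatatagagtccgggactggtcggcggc

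At the inner start of HSPD1, 3 overlapping heat shock pairs stood 245, 240 and 235 bases before the start: TTCTGGAA, GAAAGTTC and TTCTGGAA. The window of CCT2 held 1 pair, GAAATTTC, 89 bases before its start. A pair of either kind was found in 2 of the 11 chaperonin windows, against 11.6% of all 35116 windows in the table. The outer start of HSPD1 and the window of HSPE1 overlapped by 104 bases on opposite strands and held the same E-box, 88 and 22 bases before their starts. E-boxes were found in 6.34% of all windows. The antioxidant response core, letters of the element that NRF2 binds, was matched in CCT4 only among the 8 genes, and in 10.9% of all windows. Of the 5 heat shock genes that rose at 8 h, DNAJB1 and HSP90AA1 had a heat shock pair in 1 of their windows. A match describes letters and does not show a bound site.

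Signals were log2 values, so a difference of 1 is a 2-fold difference. Mean signal per array was 7.97 to 8.14. Untreated replicate 2 stood apart with the lowest upper quartile, 9.28, against 9.42 to 9.63 on the other 8 arrays. The 9 B-cell markers used had means from 10.26 (CD79B) to 13.43 (CD74) and array averages of 11.95 to 12.11. Averages were 6.56 to 6.87 for 6 T-cell markers, 6.27 to 6.72 for 5 myeloid markers and 6.39 to 6.61 for 6 fibroblast markers. Of these markers 1 was called, THY1, which was lower at 8 h. Clusters differ in probe brightness, so signals are compared between arrays and never ranked between genes. In bulk RNA, fewer cells with a transcript and less of it per cell cannot be told apart.

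No chaperonin gene passed the test in any of the 3 comparisons. With limma and Benjamini-Hochberg adjustment over all 22011 clusters, 0 of 9 were called at 8 h against 0 h (0.595% of all clusters were), 0 of 9 at 24 h against 0 h (1.62%) and 0 of 9 at 24 h against 8 h (0.327%). At such shares a count of 0 among 9 genes does not set the chaperonins apart. With arrays weighted by their fit, 3 members were called at 8 h, where that setting called 43.6% of all clusters, and 1 at 24 h, where it called 40.9%. At an unadjusted p below 0.05, CCT6A passed at 8 h (15.1% of clusters did), and no member passed in the other comparisons (20.4% and 10.4%). Arrays of the groups did not overlap for 1 member at 8 h, CCT6A, against 17.6% of clusters. They overlapped for all 9 at 24 h against 0 h and at 24 h against 8 h, where 24.3% and 21.6% of clusters were separated. For CCT6A at 24 h against 8 h, the overlap was a tie of 1 array from each group.

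**Figure D1:**
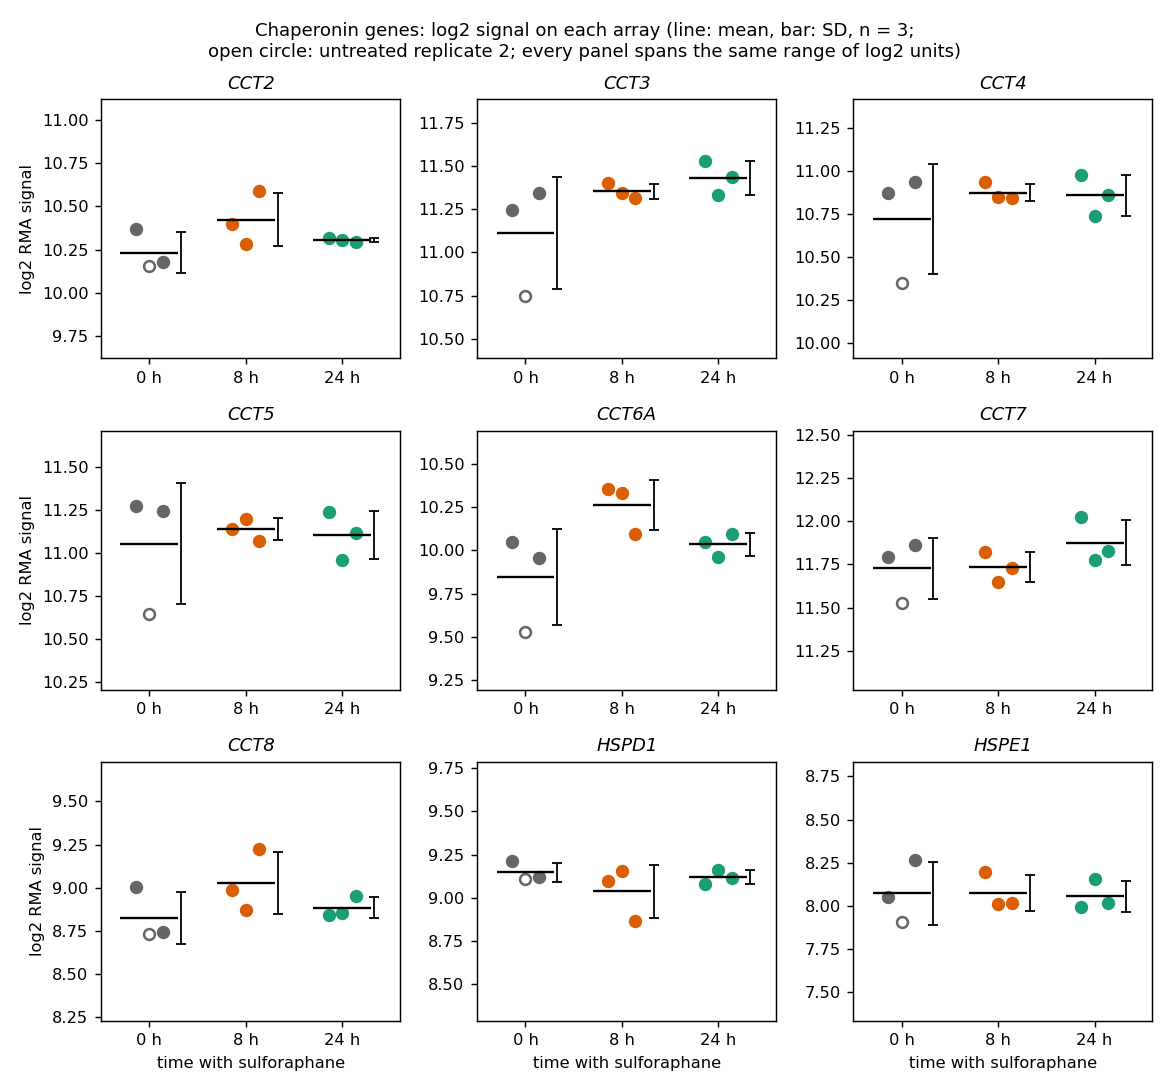
Log2 RMA signal (vertical axis) of the 9 measured chaperonin genes at 0 h, 8 h and 24 h (horizontal axis), with 1 point per array, a line at the group mean and a bar of 1 SD (n = 3). Untreated replicate 2 (open circle) is the lowest point in the panels of all 7 CCT genes and HSPE1, and only for CCT6A do the 8 h arrays all lie above the untreated ones.

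CCT6A, the zeta subunit, had the largest change of the 9 genes at 8 h. Its untreated arrays read 10.05, 9.53 and 9.96, its 8 h arrays 10.36, 10.33 and 10.10, and its 24 h arrays 10.05, 9.96 and 10.10. All 8 h arrays were above all untreated ones. The 24 h arrays overlapped the untreated ones, and the highest of them tied with the lowest 8 h array, at 10.10. The means were 9.85 ± 0.28 untreated and 10.26 ± 0.14 at 8 h (SD, n = 3). The 8 h mean was thus higher by 0.42 ± 0.14 (SE), or 1.34-fold, with a 95% interval of 1.07-fold to 1.66-fold. Over all clusters that did not pass (limma, adjusted p = 0.21), and without untreated replicate 2 the change was 0.26 ± 0.093 (limma, adjusted p = 0.27). At 24 h the change was 0.19 ± 0.14 (limma, adjusted p = 0.42), or 0.032 without that array, and from 8 h to 24 h it was -0.23 ± 0.14 (limma, adjusted p = 0.63).

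CCT3, CCT4 and CCT5, the gamma, delta and epsilon subunits, shared a pattern set by 1 array. CCT3 read 11.25, 10.75 and 11.34 untreated, 11.40, 11.34 and 11.32 at 8 h, and 11.53, 11.33 and 11.44 at 24 h. CCT4 read 10.87, 10.35 and 10.93 untreated, 10.93, 10.85 and 10.84 at 8 h, and 10.97, 10.74 and 10.86 at 24 h. CCT5 read 11.27, 10.65 and 11.24 untreated, 11.14, 11.20 and 11.07 at 8 h, and 10.96 to 11.24 at 24 h. In each of the 3 genes untreated replicate 2 lay far below the other 8 arrays, and the other untreated arrays lay within or close to the range of the treated ones. The untreated SD was 0.32 for CCT3, 0.32 for CCT4 and 0.35 for CCT5, against 0.044, 0.051 and 0.064 at 8 h. Their changes at 8 h were 0.24 ± 0.15, 0.15 ± 0.15 and 0.082 ± 0.16. At 24 h they were 0.32 ± 0.15, 0.14 ± 0.15 and 0.051 ± 0.16. Without untreated replicate 2 the 8 h changes were 0.058, -0.030 and -0.12, and the 24 h changes 0.14, -0.046 and -0.15, so CCT4 and CCT5 changed sign at both times.

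CCT2 and CCT8, the beta and theta subunits, followed each other. CCT2 read 10.37, 10.15 and 10.18 untreated, 10.40, 10.28 and 10.59 at 8 h, and 10.32, 10.31 and 10.30 at 24 h. CCT8 read 9.00, 8.73 and 8.74 untreated, 8.99, 8.87 and 9.23 at 8 h, and 8.84, 8.86 and 8.95 at 24 h. Both had their highest value on 8 h replicate 3, and untreated replicate 1 was above untreated replicates 2 and 3 in both. The changes at 8 h were 0.19 ± 0.09 for CCT2 (limma, adjusted p = 0.37) and 0.20 ± 0.11 for CCT8 (limma, adjusted p = 0.42), and at 24 h 0.073 ± 0.09 and 0.057 ± 0.11. Without 8 h replicate 3 the 8 h changes were 0.11 and 0.10. At 24 h they were 0.033 and 0.011 without untreated replicate 2, 0.046 and 0.016 without untreated replicate 3, and 0.14 for both without untreated replicate 1, and CCT8 had 0.022 without 24 h replicate 3.

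CCT7, the eta subunit, had the smallest change of the CCT genes at 8 h. It read 11.79, 11.53 and 11.86 untreated, 11.82, 11.65 and 11.73 at 8 h, and 12.02, 11.77 and 11.83 at 24 h. The 8 h arrays lay within the untreated range, and 24 h replicate 1 was above every other array. The change at 8 h was 0.0070 ± 0.11, with an interval of 0.85-fold to 1.19-fold, and at 24 h it was 0.15 ± 0.11 (limma, adjusted p = 0.42). These were -0.093 and 0.049 without untreated replicate 2.

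HSPD1, the HSP60 barrel, read 9.21, 9.11 and 9.12 untreated, 9.09, 9.15 and 8.86 at 8 h, and 9.08, 9.16 and 9.11 at 24 h. The lowest array was 8 h replicate 3, and the other 8 lay between 9.08 and 9.21. The change at 8 h was -0.11 ± 0.08 (limma, adjusted p = 0.54), with an interval of 0.81-fold to 1.06-fold, and at 24 h -0.028 ± 0.08 (limma, adjusted p = 0.85). HSPE1, the HSP10 lid, read 8.05, 7.90 and 8.26 untreated, 8.20, 8.01 and 8.01 at 8 h, and 7.99, 8.16 and 8.01 at 24 h. Its groups overlapped throughout and the untreated arrays spanned the treated ones. The change was 0.0021 ± 0.10 at 8 h (limma, adjusted p = 1.00), with an interval of 0.85-fold to 1.18-fold, and -0.018 ± 0.10 at 24 h (limma, adjusted p = 0.93). The overlapping promoters of this pair, printed above, thus went with changes whose intervals included 0 at both times, in the clusters that carry each gene alone. Clusters that carry either gene with a second symbol are given under the other observations.

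**Figure D2:**
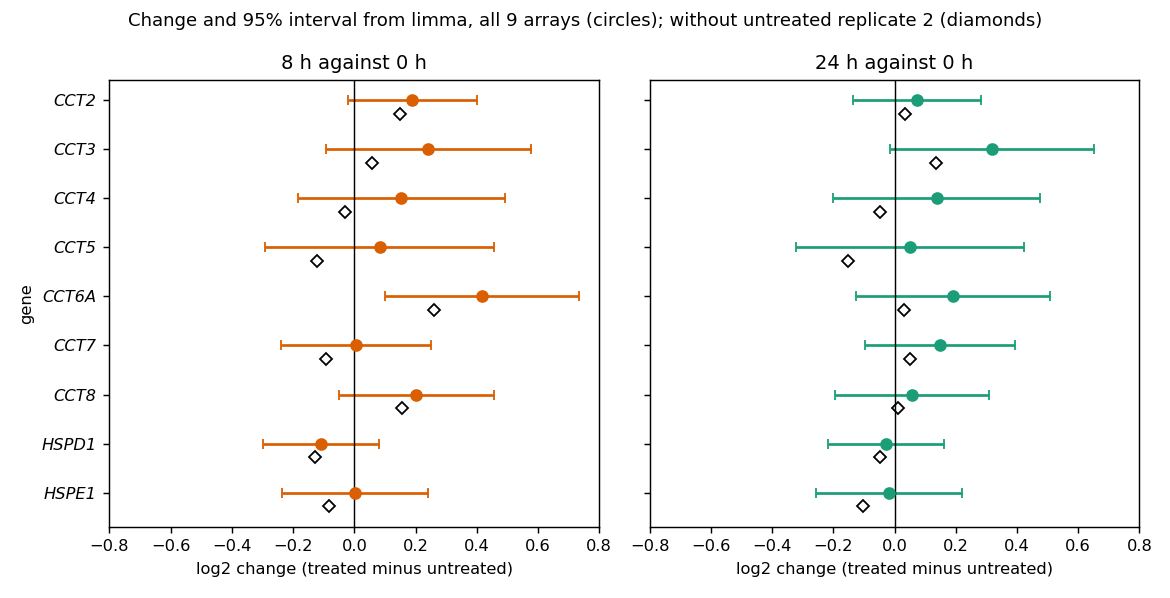
Log2 change from 0 h (horizontal axis) of each measured chaperonin gene (vertical axis) after 8 h (left) and 24 h (right), with 95% intervals from limma on all 9 arrays. Open diamonds give the change without untreated replicate 2, at which CCT4 and CCT5 lie below 0 in both panels, and only the 8 h interval of CCT6A lies wholly above 0.

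The intervals bound what the 3 arrays per group could have missed. At 8 h the upper bound was 1.49-fold for CCT3, 1.41-fold for CCT4, 1.37-fold for CCT5 and CCT8 and 1.32-fold for CCT2. At 24 h it was 1.57-fold for CCT3, 1.42-fold for CCT6A and between 1.12-fold (HSPD1) and 1.39-fold (CCT4) for the others. From 8 h to 24 h the intervals of all 9 genes included 0, with changes from -0.23 (CCT6A) to 0.14 (CCT7). Untreated replicate 2 is in neither group of this comparison but enters the shared spread. Without it the change of CCT6A was -0.23 ± 0.083 (limma, adjusted p = 0.25). CCT6A was then the 1 member that passed at an unadjusted p below 0.05, as did 16.4% of clusters.

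By sign alone, 8 of 9 members were higher at 8 h, all but HSPD1, against 47% of clusters, and 7 of 9 at 24 h, all CCT genes, against 53.1%. The median change was 0.19 over the 7 CCT genes at 8 h, against -0.012 over all clusters, and 0.14 at 24 h, against 0.017. These medians were, without untreated replicate 2, 0.058 at 8 h, against -0.016, and 0.032 at 24 h, against 0.0086. Without untreated replicate 2, 4 of 9 were higher at 8 h (44.7% of clusters) and 5 of 9 at 24 h (52.5%). From 8 h to 24 h 3 of 9 were higher, against 57.9%. These signs were counted and not tested.

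Untreated replicate 2 gave the lowest value of all 9 arrays for 8 of the 9 members, including all 7 CCT genes, and for 30.4% of all clusters. Among the 6671 clusters whose mean lay in the range of the CCT genes (8.91 to 11.78), the share was 48.3%. On that array the CCT genes lay 0.37 below their own means on average, from 0.17 (CCT2) to 0.55 (CCT3), and clusters as bright lay 0.18 below at the median. HSPD1 did not follow, at 0.0065 above its mean. The part of array quality in these low values was not tested.

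**Figure D3:**
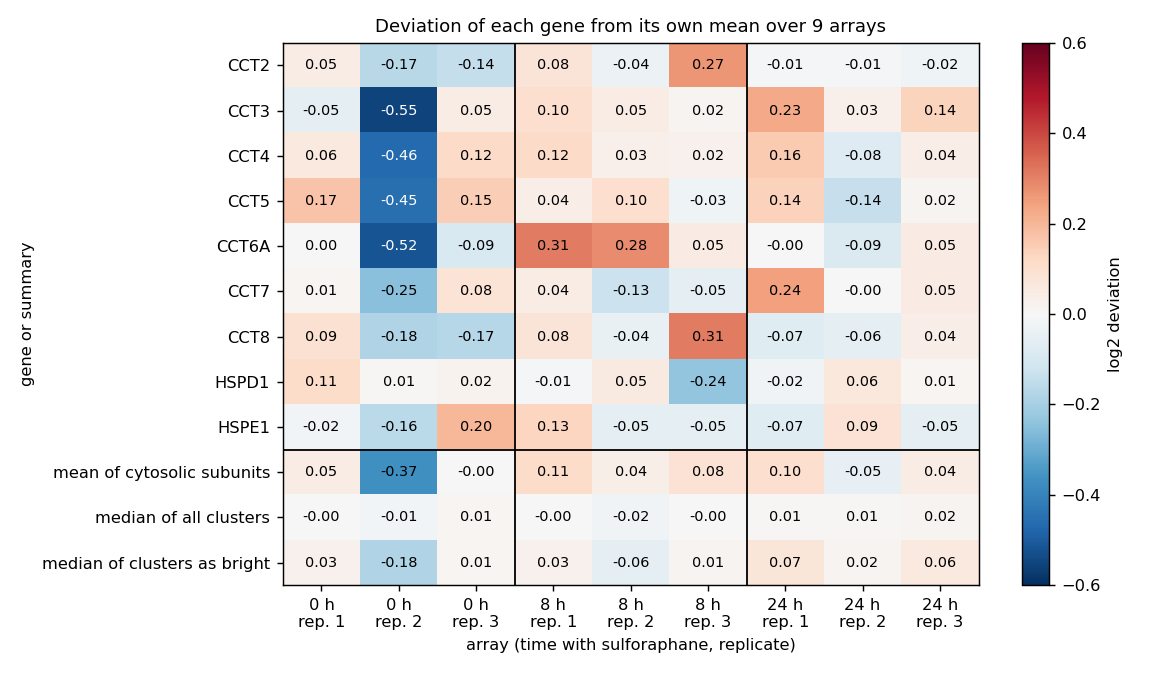
Each cell is the log2 signal of a gene (row) on an array (column) minus that gene's mean over all 9 arrays, and the 3 bottom rows give the mean of the 7 CCT genes, the median of all clusters and the median of the 6671 clusters as bright as the CCT genes. The column of untreated replicate 2 is low for CCT3, CCT4, CCT5 and CCT6A (-0.55 to -0.45), while CCT2 and CCT8 share their highest value at 8 h replicate 3, where HSPD1 is lowest (-0.24).

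Over the 9 arrays, all 21 pairs of CCT genes had a Pearson correlation above 0, with a median of 0.52. Without untreated replicate 2 the median over 8 arrays was 0.093, from -0.40 to 0.96, so the typical correlation rested on that array. The pair CCT2 and CCT8 stayed close, at 0.97 with it and 0.96 without it (Spearman 0.83 over 9 arrays). HSPD1 and HSPE1 had 0.18 over 9 arrays and 0.23 without untreated replicate 2. Each CCT gene against HSPD1 or HSPE1, 14 pairs, had a median of 0.0006, from -0.66 to 0.52, with 7 above 0. The lowest were CCT2 and CCT8 against HSPD1, at -0.66 and -0.62, or -0.75 and -0.68 without untreated replicate 2. Without that array the 14 pairs had a median of -0.095, from -0.75 to 0.30. These values describe arrays that share hybridisation and group effects, and carry no test.

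The balance among subunits was taken as the signal of a subunit minus the mean of the other 6 on the same array. This removes only a shift that the subunits share equally. On untreated replicate 2 the deviations ranged from -0.55 (CCT3) to -0.17 (CCT2), so part of that array's shift stays in the balance. CCT6A stood at -0.71, -0.83 and -0.76 untreated and at -0.42, -0.37 and -0.70 at 8 h, higher by 0.27 with no overlap, although 8 h replicate 3 was barely above untreated replicate 1. CCT7 stood at 1.32, 1.50 and 1.46 untreated and at 1.29, 1.17 and 1.20 at 8 h, lower by 0.21 with no overlap. The balance also moves with the other 6 subunits, and the change of CCT7's own signal at 8 h was 0.0070. By 24 h CCT6A was within 0.059 and CCT7 within 0.011 of the untreated balance. CCT3 was higher by 0.21 at 24 h than untreated and by 0.14 than at 8 h, and CCT7 was higher by 0.22 at 24 h than at 8 h, all with no overlap. Each of these differences had p = 0.10 by an exact two-sided permutation test, the smallest that 3 arrays against 3 allow, and 0.42 after Benjamini-Hochberg adjustment over 21 such tests. Subtracting the CCT mean separated 27.3% of all clusters at 8 h, 19.8% at 24 h and 26.7% from 8 h to 24 h, against 2 of 7, 1 of 7 and 2 of 7 subunits. Without untreated replicate 2 the differences from untreated were 0.24 for CCT6A, -0.17 for CCT7 and 0.15 for CCT3.

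Of the listed helpers and clients of the cytosolic chaperonin, CDC20 and PLK1 were called, and the others were not. Of 13 genes of prefoldin and the phosducin-like cofactors, 12 were measured and none was called in any comparison, with a median change of 0.030 at 8 h and 0.091 at 24 h. PDRG1, a prefoldin-like subunit, read 9.04 to 9.14 untreated and 9.23 to 9.45 at 8 h, a change of 0.26 ± 0.07 (limma, adjusted p = 0.14). PFDN5, a prefoldin subunit, had a change of 0.22 ± 0.08 at 24 h (limma, adjusted p = 0.21). Of 7 tubulin cofactor genes, 4 were measured and none was called. TBCEL, which resembles cofactor E, had a change of 0.46 ± 0.13 at 24 h (limma, adjusted p = 0.12), and TBCD, cofactor D, by -0.20 ± 0.08 at 8 h (limma, adjusted p = 0.31).

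Among 27 reported clients of the cytosolic chaperonin, 20 were measured. At 8 h none was called, with a median change of -0.0017. At 24 h against 0 h, 2 fell, none rose and 18 did not pass, with a median of -0.083. Of all clusters, 1.62% were called in that comparison and 0.327% from 8 h to 24 h. The 2 clients that fell were CDC20 and PLK1. CDC20, the activator of the anaphase-promoting complex, read 11.73 to 12.14 untreated, 11.48 to 11.91 at 8 h and 10.43 to 10.67 at 24 h, and fell by 1.24 ± 0.15 from 8 h to 24 h (limma, adjusted p = 0.022). PLK1, the mitotic kinase, read 11.54 to 11.73 untreated, 11.55 to 11.75 at 8 h and 10.11 to 10.36 at 24 h, and fell by 1.42 ± 0.10 from 8 h to 24 h (limma, adjusted p = 0.0025). Both sets of 24 h arrays lay below every other array. Leaving out untreated replicate 3 reduced the count to 1 at 24 h against 0 h. From 8 h to 24 h it was 1 when 8 h replicate 1, 8 h replicate 3 or a single array of the 24 h group was left out. The other measured clients include both cytoplasmic actins, for which the changes at 24 h were 0.21 ± 0.13 (ACTB) and -0.15 ± 0.09 (ACTG1), chosen after their values were seen.

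Of 7 chaperonin-like genes, 5 were measured and none was called, with a median of 0.14 at 8 h and 0.30 at 24 h. BBS10 and BBS12, chaperonin-like proteins that help assemble the ciliary BBSome complex, had changes of 0.46 ± 0.11 (limma, adjusted p = 0.085) and 0.42 ± 0.09 (limma, adjusted p = 0.065) at 24 h. BBS10 was called, as higher, when untreated replicate 1 was left out. CCT6B, the testis-type zeta subunit and the closest relative of CCT6A, had a change of 0.17 ± 0.06 at 8 h (limma, adjusted p = 0.28). CCT6B was added after its values were seen. CCT6B and BBS12 were dim, at 5.28 to 5.56 and 5.38 to 6.09 on the 9 arrays, against array medians of 7.99 to 8.13.

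Beside HSPD1 and HSPE1 in mitochondria, 16 of 21 other chaperone, import and protease genes were measured, and none was called in any comparison. Their median change was -0.037 at 8 h and 0.10 at 24 h. LONP1, the matrix protease, read 8.98, 9.07 and 9.06 untreated and 8.77, 8.88 and 8.89 at 24 h, a change of -0.19 ± 0.06 (limma, adjusted p = 0.16). HTRA2, a protease of the intermembrane space, had a change of 0.29 ± 0.10 from 8 h to 24 h (limma, adjusted p = 0.37).

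Other chaperone genes did rise in these cultures. Of 23 genes on the heat shock list, 16 were measured. At 8 h 5 rose, none fell and 11 did not pass, with a median change of 0.44, and 0.595% of all clusters were called. The list held targets of heat shock factor and also the factor genes HSF1 and HSF2. HSF1 was measured and not called, with a change of -0.11 ± 0.13 at 8 h (limma, adjusted p = 0.69). HSPH1, an HSP110 chaperone, read 11.23, 10.98 and 10.98 untreated, 12.04, 11.95 and 12.13 at 8 h and 11.39, 11.19 and 11.28 at 24 h. STIP1, which bridges HSP70 and HSP90, read 12.05, 12.04 and 12.02 untreated, 12.54, 12.44 and 12.47 at 8 h and 11.87, 11.91 and 11.90 at 24 h. In both, every 8 h array was above all others, and the 24 h arrays of STIP1 lay below its untreated ones without passing the test (limma, adjusted p = 0.19). STIP1 rose by 0.44 ± 0.05 (limma, adjusted p = 0.017) and fell by 0.59 ± 0.05 from 8 h to 24 h (limma, adjusted p = 0.0072). DNAJB1, an HSP40 co-chaperone, went from 9.60 to 9.72 untreated to 10.26 to 10.60 at 8 h, and BAG3, an HSP70 co-chaperone, from 8.52 to 8.61 to 8.95 to 9.14. From 8 h to 24 h, HSPH1, BAG3 and HSP90AA1 fell as well, HSP90AA1 by 0.64 ± 0.09 (limma, adjusted p = 0.039). At 24 h against 0 h none of the 16 was called, and DNAJB4, an HSP40 co-chaperone, had a change of 1.25 ± 0.28 (limma, adjusted p = 0.073). It was called as higher when untreated replicate 1 was left out, with the low-signal filter or with quantile normalization. The heat shock genes called at 8 h were known to have risen when the list was drawn up, so the count is not independent evidence.

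Set side by side at 8 h, the lower bounds of the 95% intervals were 1.70-fold for HSPH1, 1.47-fold for DNAJB1, 1.36-fold for HSP90AA1, 1.26-fold for BAG3 and 1.25-fold for STIP1. The upper bounds were 1.06-fold for HSPD1, 1.18-fold for HSPE1 and 1.19-fold for CCT7. The intervals of the other 6 CCT genes overlapped those of some of these 5 heat shock genes. Among the 11 that were not called, HSPA8, a constitutive HSP70 chosen after its values were seen, had an interval of 0.94-fold to 1.13-fold, which overlapped those of HSPD1, HSPE1 and CCT7. No difference between the lists was tested. The heat shock count at 8 h depended on the arrays. Leaving out untreated replicate 1 gave 8 genes and leaving out untreated replicate 3 gave 0. It was 1 when 8 h replicate 1 was dropped and 1 for 8 h replicate 3, and dropping a 24 h array left 3, 2 and 3 genes for replicates 1, 2 and 3. A fit of the 0 h and 8 h arrays alone called 0. The 4 genes that fell from 8 h to 24 h became 2 when untreated replicate 1 was dropped and 1 for untreated replicate 3. The count became 0, 4 and 0 for 8 h replicates 1, 2 and 3, and 1, 0 and 1 for 24 h replicates 1, 2 and 3. The 4 without 8 h replicate 2 held DNAJB1 in place of HSPH1.

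**Figure D4:**
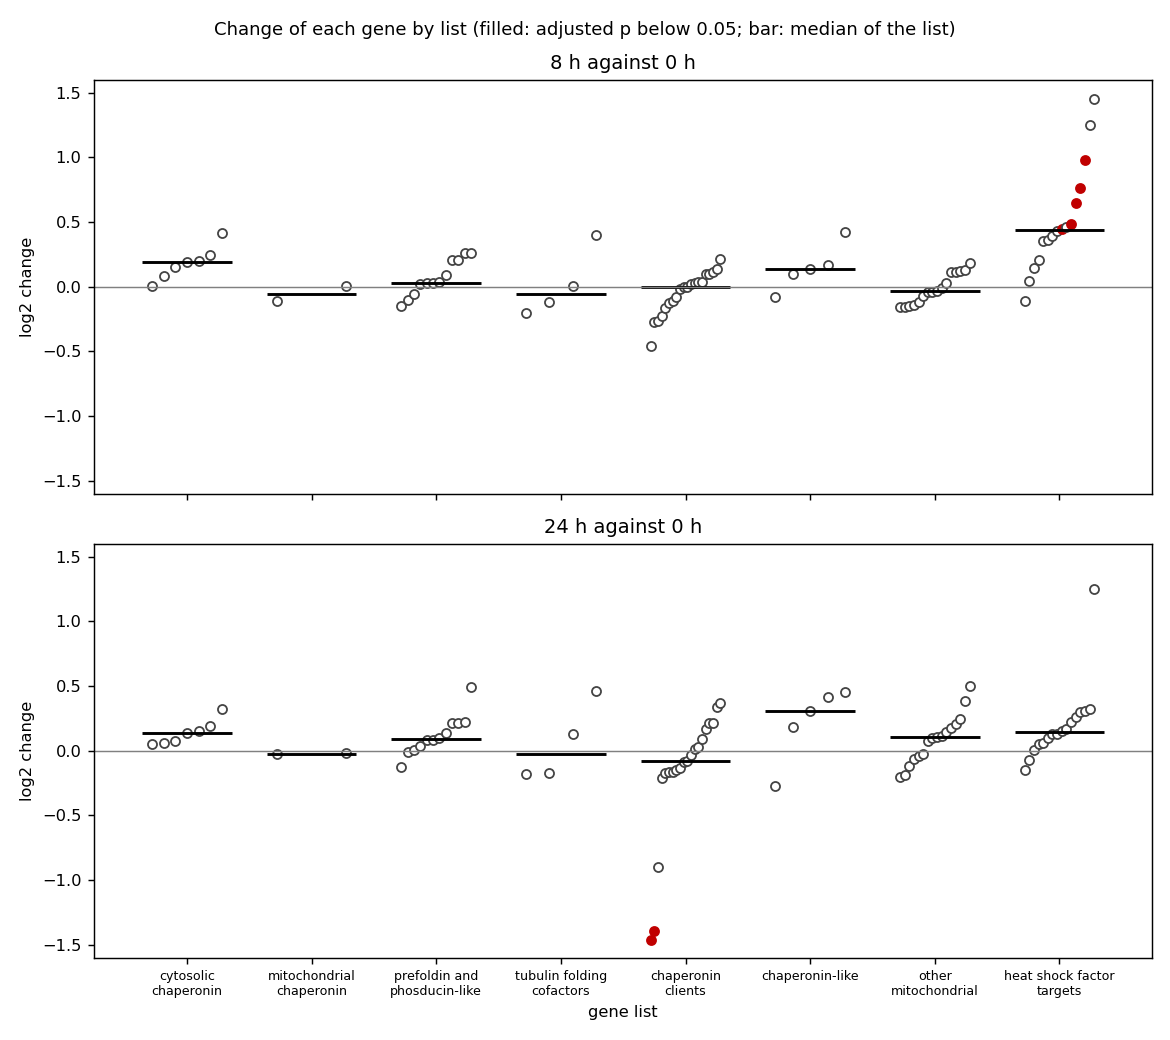
Log2 change (vertical axis) of each measured gene at 8 h (top) and 24 h (bottom) against 0 h, by gene list (horizontal axis), with filled points for adjusted p below 0.05 and a bar at each median. Filled points appear only among heat shock factor targets at 8 h (5 genes) and chaperonin clients at 24 h (CDC20 and PLK1), and all 9 chaperonin points are open at both times.

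The genes with the profile most like each chaperonin over the 9 arrays were found by Pearson correlation, as a description. For the mean of the 7 CCT genes they were INO80D, SEM1 and ST6GAL1 among 7312 genes (each 0.98). All 3 had lower values without untreated replicate 2, from 0.86 to 0.88 over 8 arrays. For HSPE1 they were H2AC25 (0.89), RASSF1 (0.85) and ASNS (0.85) among 7319 genes. For HSPD1 they were MAML1 (0.79), RCC1L (0.79) and CCDC28B (0.78) among 7318. The highest of so many correlations over 9 arrays can be high by selection alone, and none was tested. Without untreated replicate 2 the same genes had 0.80 to 0.86 for HSPE1 and 0.78 to 0.89 for HSPD1, which overlap the values for the CCT mean. Neither mitochondrial gene was among the 3 nearest of the other.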

How the data were processed

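Gene-level signals of 9 arrays were analysed. The authors summarised core transcript clusters with gene-level RMA and sketch-quantile normalization in Affymetrix Expression Console, per the labels and the series' design text, and deposited log2 signals. Not given in the sources used here were versions, annotation release and genome build, so clusters have no coordinates. Genes were named from the platform annotation: 14432 clusters had 1 symbol, 2408 several and 5171 none.

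All 22011 clusters entered 1 model in limma (version 3.58.1, R 4.3.3) on the values as deposited, with 1 mean per group, all 9 arrays and no block. Two-sided moderated tests were adjusted by Benjamini-Hochberg over all clusters within a comparison, and called at an adjusted p below 0.05. Intervals are unadjusted 95% intervals of that fit. The workflow was run on simulated data with known changes and the same spread on all 9 arrays, so an outlying array was not simulated. Counts do not exist for arrays, and 3 arrays per group limit the precision. Replicates were separate cultures, per the design text.

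Members, lists and tests were chosen with earlier results of these data known. All 9 measured members were named, with up to 4 called genes of each companion list, or, for a list without calls, its 2 genes of lowest p.  Profile likeness took the 3 closest genes at or above the median signal. Promoters came from RefSeq (GRCh38.p14). Alternatives were a replicate block, a low-signal filter, quantile normalization, median centring, trended eBayes, array weights, fits of 2 groups, a threshold of 0.01 and leaving out each array; gene-by-gene array weights were added after seeing the data.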

Additional observations from a re-analysis of the deposited data

How the results depend on the processing

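No chaperonin gene was called with quantile normalization, median centring, the replicate block, the low-signal filter, trended eBayes, fits of 2 groups or gene-by-gene array weights, nor at the threshold of 0.01 or without any 1 array (lowest and highest count 0). With array weights, whose fit did not converge, 3 were called at 8 h (CCT2, CCT6A and CCT8, all higher) and 1 at 24 h (HSPE1, lower), but that setting called 9603 clusters at 8 h (43.6%), 9010 at 24 h (40.9%) and 1516 from 8 h to 24 h, and gave untreated replicate 3 a weight of 29.8 against 0.136 for untreated replicate 2.

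The total called at 8 h against 0 h, 131, became 85 with the replicate block, 302 with the filter, 390 with quantile normalization, 288 with median centring, 1703 with gene-by-gene weights, 9 in the fit of 2 groups, 19 at 0.01, and 9 to 654 without 1 array. The 357 at 24 h became 560 with quantile normalization, 1889 with gene-by-gene weights, 20 in the fit of 2 groups, 24 at 0.01, and 21 to 768 without 1 array. The 72 from 8 h to 24 h became 44 with the replicate block, 109 with quantile normalization, 1325 with gene-by-gene weights, 25 in the fit of 2 groups, 19 at 0.01, and 4 to 160 without 1 array. The causes were not tested.

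No member was called in the fit reported, so sign changes could only be of uncalled members. Of their 27 changes, 9 took the other sign in another setting and 12 when 1 array was left out. At 8 h, with array weights and gene-by-gene weights, they were -0.029 and -0.0020 for CCT4, -0.12 and -0.099 for CCT5, -0.077 and -0.064 for CCT7, and -0.13 and -0.092 for HSPE1. With quantile normalization and median centring they were -0.034 and -0.016 for CCT7 and -0.015 and -0.021 for HSPE1. At 24 h, the weights gave -0.079 and -0.035 for CCT4 and -0.14 and -0.11 for CCT5, and array weights -0.013 for CCT7 and, without a sign change, -0.22 for HSPE1. Quantile normalization gave -0.027 for CCT2, -0.029 for CCT5 and -0.055 for CCT8, and median centring -0.013 for CCT5 and -0.0062 for CCT8. Without 1 array, the ranges that crossed 0 at 8 h were -0.030 to 0.26 for CCT4, -0.12 to 0.19 for CCT5, -0.093 to 0.075 for CCT7 and -0.082 to 0.098 for HSPE1. At 24 h they were -0.046 to 0.24 for CCT4, -0.15 to 0.16 for CCT5, -0.050 to 0.0045 for HSPD1 and -0.10 to 0.078 for HSPE1. From 8 h to 24 h they were -0.074 to 0.043 for CCT4, -0.098 to 0.040 for CCT5, -0.0050 to 0.14 for HSPD1 and -0.071 to 0.041 for HSPE1.

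Of the 16 measured genes of the heat shock list, the replicate block called 3 at 8 h. It called 1 at 24 h (DNAJB4) and 2 from 8 h to 24 h. Of the chaperonin-like genes it called 1 at 24 h (BBS10). Gene-by-gene weights called DNAJB4, BBS10, BBS12 and TBCEL at 24 h, and PDRG1, TBCEL and MKKS at 8 h. From 8 h to 24 h they called BBS10, BBS12, GRPEL2 and HTRA2. The genes named so far in this paragraph were higher in those settings, and none of them was called in the fit reported. Other genes of the heat shock and client lists were called beside them. The heat shock genes that the replicate block called at 8 h were higher, and those from 8 h to 24 h lower. All of those were also called in the fit reported. Whether replicate numbers pair the samples cannot be settled from these values. Deviations of same-numbered arrays correlated from -0.14 to 0.39, above 0.1 in 3 of 9 pairs. Of 18 choices, 8 fell on the own number. Between untreated and 24 h arrays, same-numbered pairs had 0.39, 0.38 and 0.056 for replicates 1, 2 and 3. Pairs of unlike number between these groups had -0.42 to 0.13. No member had several clusters of its own, so averaging clusters gave no value.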

Other observations

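Cluster 2982381, the cluster that carries TCP1 together with 2 small nucleolar RNA symbols and stands for no gene in the comparisons, read 12.79, 12.52 and 12.87 untreated, 12.98, 12.91 and 12.91 at 8 h, and 12.87, 12.80 and 12.86 at 24 h. All 8 h arrays lay above all other arrays, and untreated replicate 2 was the lowest, as for the CCT genes. Its change at 8 h was 0.20 ± 0.09 (limma, adjusted p = 0.35). Cluster 3608220, which carries HSPE1 and a second symbol, had a change of 0.20 ± 0.08 at 8 h (limma, adjusted p = 0.27), against 0.0021 for the cluster of HSPE1 alone. The 95% interval of cluster 3608220 at 8 h was 0.027 to 0.38 in log2, which excluded no change. Its 8 h arrays all lay above its untreated ones and overlapped its 24 h arrays. Cluster 2931970, which carries HSPD1 and a second symbol, was dim, at 3.93 to 4.18 on the 9 arrays, and had a change of -0.031 ± 0.07 at 8 h (limma, adjusted p = 0.85). Which of its genes a mixed cluster reads was not tested.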
